A study of Homo sapiens with 16 samples.

Results

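The genes described here are 7 transcription factors of intestinal epithelium: CDX1, CDX2, HNF4A, GATA6, KLF4, KLF5 and ELF3. They were found by matching these symbols to the Ensembl identifiers of the count files, and all 7 of the 7 were present among 54127 genes. RNA sequencing was performed to ask how the transcriptome of colorectal cancer cells responds to itraconazole, an antifungal drug. HT55 and SW948, both established lines from human colorectal carcinoma, were grown attached in serum-containing medium with itraconazole at 5 µM or with DMSO as the solvent control, and RNA was taken on day 6. There were 4 groups of 4 libraries, named HT55_CONT and SW948_CONT for DMSO and HT55_ITRA and SW948_ITRA for the drug, and the study describes its replicates as biological. Neither line carried an added genetic change, and each is a single line, so a difference between HT55 and SW948 is a difference between these lines only.

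CDX1 and CDX2 are homeobox factors that set intestinal as opposed to gastric or other endodermal identity and switch on brush border, adhesion and mucin genes. HNF4A, a nuclear receptor, and GATA6, a zinc finger factor, act with the CDX factors at many intestinal enhancers and control absorptive and lipid-handling genes. KLF4 and KLF5 are related zinc finger factors that bind similar GC-rich letters and are known for opposite placement in the gut, KLF5 in the dividing cells of the crypt base and KLF4 in post-mitotic cells towards the surface and in goblet cells. ELF3 is an ETS family factor restricted largely to epithelia, where it is tied to differentiation and to inflammatory signals.

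Each library held 8269406 to 11110814 counts in genes. Markers of colorectal epithelium such as EPCAM, VIL1 and CDH17 had a count in every library for 14 of 14 genes, and their summed level ran from 12719 to 12916 CPM (counts per 1000000 gene counts, scaled by TMM over all 16 libraries) in HT55 with DMSO, from 15550 to 18978 with itraconazole, from 8566 to 8938 in SW948 with DMSO and from 11645 to 14232 with itraconazole. In treated SW948 these markers went both ways: 8 of 13 tested were called higher and 5 lower, beside 38.9% and 41.3% of all tested genes. CEACAM5 and KRT8 were among the higher (log2 fold changes 1.75 and 1.03), and CDH17, VIL1 and GPA33 among the lower (-0.66, -0.63 and -1.31). Of 20 markers of other cell types found in the files, 8 or 9 were at 0 in each group, among them KRT5, KRT14, CD3E and COL3A1 in all groups, and the sum stayed between 4.47 and 7.85 CPM except in treated SW948, where it was 11.1 to 13.1 CPM, mostly COL1A1 at 10.1 ± 1.03 CPM (SD, n = 4). The part of these marker shifts in the results below was not tested. A pair of treated libraries stood apart: along the mean change of the other treated libraries of their line, HT55 itraconazole replicate 3 had moved 0.62 of the way over 13249 genes, against 0.90 to 1.1 for the other 3, and SW948 itraconazole replicate 1 had moved 0.84 of the way, against 0.96 to 1.08. Calls and directions of the genes named below that depend on either are given with and without it. In bulk RNA, fewer cells expressing a gene and less RNA per cell cannot be told apart.

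CDX2, KLF4 and ELF3 were the 3 members that changed in both lines, CDX2 in opposite ways and the other two upwards, and for this reason their promoter windows are shown. Each window runs from 250 bases before to 50 bases after the annotated start, 5′ to 3′ on the gene's strand, from RefSeq on GRCh38.p14, where 6 of the 7 members matched, all but CDX1, with 8 start sites between them. Capitals mark matches on either strand to 6 short motifs. TTTAT is the core bound by CDX factors. CAAAG is part of the site of HNF4 receptors. AGATAA is the usual site of GATA-type zinc fingers. CCACCC is a site of Krüppel-like factors. AGGAAG holds the core of ETS factors. The TATA box was searched as TATAAA. The windows are chr13:27969266-27969565, minus strand, for CDX2, chr9:107489720-107490019, minus strand, for KLF4 and chr1:202010337-202010636, plus strand, for ELF3.
CDX2: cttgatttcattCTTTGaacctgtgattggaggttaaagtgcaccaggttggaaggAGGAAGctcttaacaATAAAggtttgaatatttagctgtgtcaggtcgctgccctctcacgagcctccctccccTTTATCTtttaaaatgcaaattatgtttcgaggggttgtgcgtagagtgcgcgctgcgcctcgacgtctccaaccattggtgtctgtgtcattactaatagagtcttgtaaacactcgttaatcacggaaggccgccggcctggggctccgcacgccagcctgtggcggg
KLF4: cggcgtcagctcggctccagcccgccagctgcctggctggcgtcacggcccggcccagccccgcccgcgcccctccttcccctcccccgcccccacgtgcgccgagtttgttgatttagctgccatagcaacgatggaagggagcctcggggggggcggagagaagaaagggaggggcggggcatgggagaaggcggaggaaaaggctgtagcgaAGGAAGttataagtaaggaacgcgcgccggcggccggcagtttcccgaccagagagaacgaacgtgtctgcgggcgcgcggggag
ELF3: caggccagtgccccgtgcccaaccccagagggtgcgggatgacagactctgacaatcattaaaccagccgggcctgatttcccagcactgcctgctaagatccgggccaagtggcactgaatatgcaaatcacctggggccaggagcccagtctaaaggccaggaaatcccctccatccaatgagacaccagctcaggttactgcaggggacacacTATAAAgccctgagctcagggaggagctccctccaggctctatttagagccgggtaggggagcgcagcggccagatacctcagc
In the CDX2 window, 50.3% of the bases were G or C, against 69.0% for KLF4 and 59.0% for ELF3, and a median of 58.7% over all promoters. The CDX2 window held CDX letters at 120 and 179 bases before the start, the first of them sharing bases with a match for GATA-type factors, besides HNF4 letters at 238 bases before the start and ETS letters at 194. The KLF4 window had a single match, the ETS letters at 35 bases before the start. The ELF3 window held the TATA box letters at 34 bases before the start, and its 1 CDX match lay on the opposite strand within those same letters. Such matches are common: of 35116 promoters of this length, 34.9% held the CDX letters, 47.5% the HNF4 letters, 10.3% those of the zinc fingers, 34.3% KLF, 33.6% ETS and 11.5% the TATA box letters. A match describes letters and not a bound site.

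With itraconazole, 3 of the 7 members passed the test in HT55 (edgeR quasi-likelihood, adjusted p under 0.05), all of them higher, where 54.0% of all tested genes passed (27.5% as higher, 26.5% as lower). CDX2, KLF4 and ELF3 rose there, and without HT55 itraconazole replicate 3 HNF4A and KLF5 passed as well, for 5 of 7, while genes called over the whole table went from 6553 to 7910. In SW948 all 7 passed, where 80.2% of tested genes did (38.9% as higher, 41.3% as lower), and the 7 also passed without SW948 itraconazole replicate 1. GATA6, KLF4 and ELF3 rose in SW948, and CDX1, CDX2, HNF4A and KLF5 fell. The libraries of the 2 treatments did not overlap in CPM for 4 of the 7 members in HT55, against 49.4% of tested genes, and for 7 of 7 in SW948, against 74.7%. The median log2 fold change of the members was 0.15 in HT55 and -0.27 in SW948, beside -0.02 over all tested genes in each line. With backgrounds this high and 7 genes, the number of members called is no result about them, and the description rests on their directions and sizes. Sizes depend on scaling: on plain library totals, without a normalisation factor, all tested genes had a median log2 fold change of -0.18 for HT55 and -0.35 for SW948, and all 7 members were lower than with TMM in both lines.

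**Figure D1:**
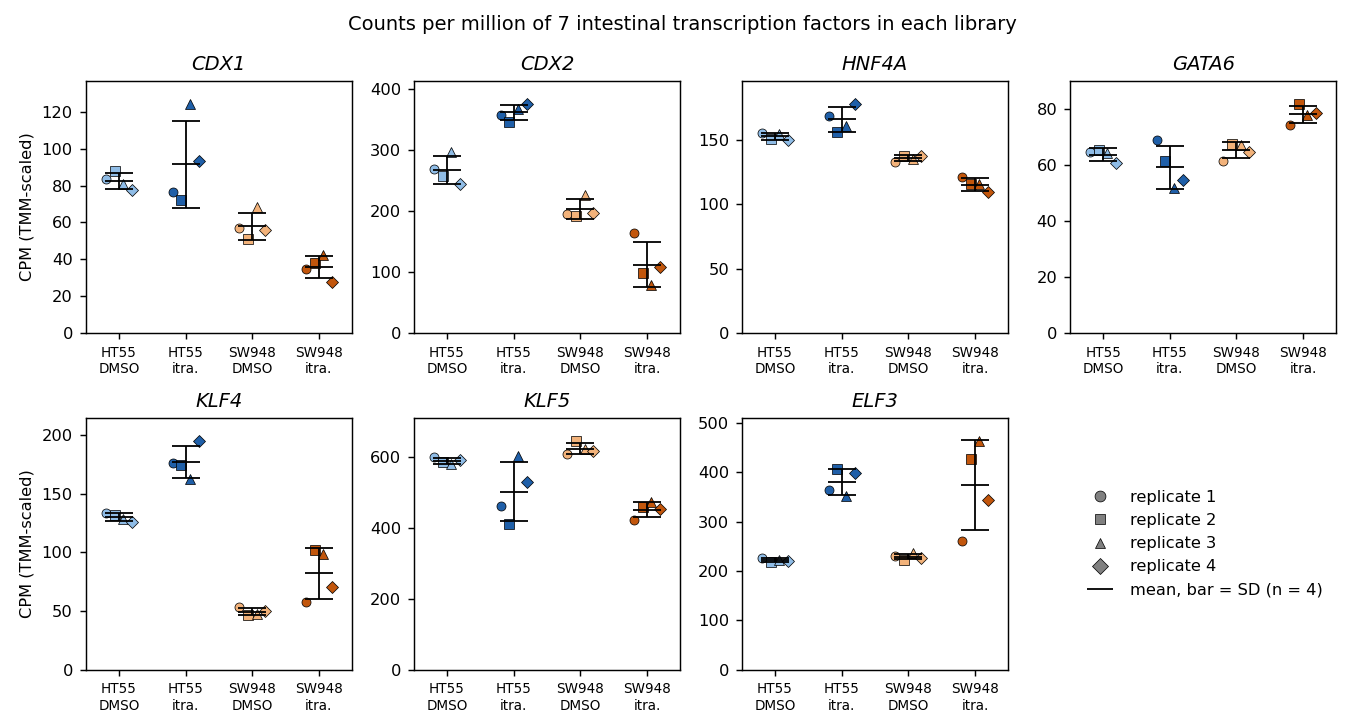
Level of each member in each library, in CPM scaled by TMM over the 16 libraries, by group; symbols give the replicate number, long ticks the mean and bars the SD (n = 4). CDX2 sits between 346 and 376 CPM in HT55 with itraconazole and between 78.4 and 164 in SW948 with itraconazole, with the DMSO groups of both lines in between, while ELF3 is higher with itraconazole in both lines.

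CDX2, the homeobox factor used as the standard marker of intestinal origin, moved in opposite ways. In HT55 it was at 269, 257, 297 and 245 CPM in the 4 DMSO libraries and at 357, 346, 367 and 376 CPM in the 4 itraconazole libraries. Every treated library lay above every control, and the rise was 1.35-fold (log2 fold change 0.43 ± 0.0703, SE; edgeR adjusted p = 0.000571), or 0.27 when scaled to plain totals (edgeR adjusted p = 0.0122).
In SW948, CDX2 was at 195, 192, 227 and 196 CPM with DMSO and at 164, 97.7, 78.4 and 108 CPM with itraconazole. All 4 treated libraries lay below all 4 controls, replicate 1 being the nearest to them, and the mean fell from 203 ± 16.2 to 112 ± 36.7 CPM (SD, n = 4; log2 fold change -0.88 ± 0.161, SE; edgeR adjusted p = 0.000166). Without SW948 itraconazole replicate 1 its log2 fold change was -1.11 (edgeR adjusted p = 1.06e-08). The order of the groups was HT55 itraconazole, HT55 DMSO, SW948 DMSO and SW948 itraconazole, and no neighbours in it overlapped.

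CDX1, the close relative of CDX2 that shares its homeodomain type and most of its known intestinal targets, fell in SW948 and did not pass in HT55. In HT55 it was at 83.4, 87.7, 80.8 and 77.5 CPM with DMSO and at 76.6, 71.9, 124 and 93.3 CPM with itraconazole. The treated libraries fell on both sides of the controls and the highest was replicate 3, the library that stood apart, so that the log2 fold change was 0.15 with an interval of -0.18 to 0.48 (edgeR adjusted p = 0.41) and, without that library, -0.02 (edgeR adjusted p = 0.819).
In SW948, CDX1 was at 57.2, 50.8, 68.2 and 55.7 CPM with DMSO and at 34.9, 37.9, 42.6 and 27.9 CPM with itraconazole. No treated library reached a control, and the fall was 1.66-fold (log2 fold change -0.73 ± 0.119, SE; edgeR adjusted p = 5.98e-05). Within a library, the ratio of CDX2 to CDX1 counts ran from 1.84 to 4.69 in treated SW948 against 3.33 to 3.79 in its controls, so the 2 genes fell by unlike amounts in different libraries, CDX2 least in replicate 1 and CDX1 least in replicate 3.

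HNF4A, the nuclear receptor that maintains the absorptive program, did not pass in HT55 and fell in SW948. It was at 155, 150, 154 and 150 CPM in HT55 with DMSO and at 169, 156, 160 and 178 CPM with itraconazole. The treated libraries all lay just above the controls, but the log2 fold change of 0.12 ± 0.0588 (SE) did not pass (edgeR adjusted p = 0.117), and it was 0.14 and passed without HT55 itraconazole replicate 3 (edgeR adjusted p = 0.0418).
In SW948 it was at 132, 137, 135 and 137 CPM with DMSO and at 121, 116, 115 and 109 CPM with itraconazole. The groups did not overlap, and the fall was 1.20-fold (log2 fold change -0.27 ± 0.0577, SE; edgeR adjusted p = 0.000707). Scaled to plain totals the fall was larger, at -0.60 (edgeR adjusted p = 1.19e-06). HNF4A thus moved the same way as CDX2 in SW948, by a smaller amount: within a library the ratio of CDX2 to HNF4A counts went from between 1.63 and 1.92 to between 2.11 and 2.29 in HT55, and from between 1.4 and 1.68 to between 0.681 and 1.36 in SW948.

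GATA6, the zinc finger factor of endoderm and of the crypt, was the 1 member of the CDX, HNF4 and GATA group that rose in SW948. It was at 64.9, 65.5, 64.4 and 60.7 CPM in HT55 with DMSO and at 69.0, 61.6, 51.8 and 54.7 CPM with itraconazole. These overlapped, and the log2 fold change of -0.11 had an interval of -0.31 to 0.09 (edgeR adjusted p = 0.31) and was -0.04 without HT55 itraconazole replicate 3 (edgeR adjusted p = 0.687).
In SW948, GATA6 was at 61.7, 67.7, 67.4 and 64.7 CPM with DMSO and at 74.3, 82.0, 77.9 and 78.7 CPM with itraconazole, without overlap (log2 fold change 0.23 ± 0.0629, SE; edgeR adjusted p = 0.00435). The rise of GATA6 was sensitive to how libraries were scaled. On plain library totals GATA6 was at -0.28 in HT55, where it passed as lower (edgeR adjusted p = 0.014), and at -0.10 in SW948, where it did not pass (edgeR adjusted p = 0.149). The ratio of HNF4A to GATA6 counts within a library does not depend on scaling, and it was 2.0 to 2.15 in SW948 with DMSO and 1.39 to 1.62 with itraconazole, against 2.29 to 2.47 and 2.44 to 3.25 in HT55.

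KLF4, the Krüppel-like factor of post-mitotic surface and goblet cells, rose in both lines. In HT55 it was at 134, 132, 129 and 126 CPM with DMSO and at 176, 174, 163 and 195 CPM with itraconazole. Every treated library lay above every control (log2 fold change 0.44 ± 0.0656, SE; edgeR adjusted p = 0.00034).
In SW948, where the level was lower, KLF4 was at 53.2, 46.6, 47.1 and 50.3 CPM with DMSO and at 57.5, 102, 98.1 and 70.1 CPM with itraconazole. The groups did not overlap, but replicate 1 came within a few CPM of its controls, and the log2 fold change was 0.70 ± 0.148 (SE; edgeR adjusted p = 0.000621) with it and 0.85 without it (edgeR adjusted p = 1.77e-06). Scaled to plain totals the values of KLF4 for HT55 and SW948 were 0.27 and 0.35 (edgeR adjusted p = 0.00403 and 0.0228). KLF4 was also the member that differed most between the untreated lines, 130 ± 3.59 CPM in HT55 against 49.3 ± 3.05 in SW948 (SD, n = 4).

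KLF5, the Krüppel-like factor of dividing crypt cells, had the highest level of the 7 and went the other way. In HT55 it was at 603, 587, 582 and 592 CPM with DMSO and at 463, 413, 604 and 532 CPM with itraconazole. In 3 of 4 treated libraries it lay below all controls and in replicate 3, the library that stood apart, above them. Its log2 fold change of -0.23 ± 0.105 (SE) did not pass (edgeR adjusted p = 0.0794), and without that library it was -0.32 and passed (edgeR adjusted p = 0.00191).
In SW948, KLF5 was at 610, 648, 623 and 619 CPM with DMSO and at 423, 460, 473 and 455 CPM with itraconazole. All treated libraries were lower by a wide margin, and the fall was 1.41-fold (log2 fold change -0.50 ± 0.0613, SE; edgeR adjusted p = 3.84e-06). Scaled to plain totals KLF5 was at -0.39 in HT55, where it passed, and at -0.83 in SW948 (edgeR adjusted p = 0.0204 and 4.1e-09).

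**Figure D2:**
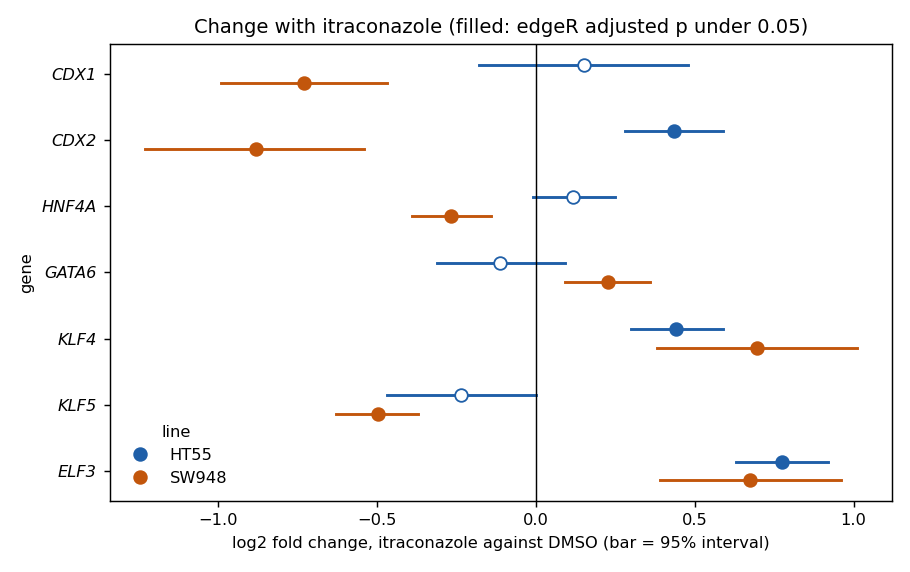
Log2 fold change of each member, itraconazole against DMSO, in HT55 (blue) and SW948 (orange), from edgeR; bars are 95% intervals and filled points passed at an adjusted p under 0.05. CDX1, CDX2, HNF4A and GATA6 have points on opposite sides of 0 in the 2 lines, and of these only CDX2 passed in both. KLF4 and ELF3 lie above 0 in both lines. KLF5 lies below 0 in both and passed in SW948 only.

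ELF3, the epithelium-restricted ETS factor, showed the largest rise among the members in HT55 and a rise in SW948 as well. In HT55 it was at 227, 218, 223 and 220 CPM with DMSO and at 364, 408, 352 and 398 CPM with itraconazole. The lowest treated library was far above the highest control, and the rise was 1.71-fold (log2 fold change 0.77 ± 0.0643, SE; edgeR adjusted p = 1.17e-05).
In SW948, ELF3 was at 232, 223, 236 and 227 CPM with DMSO and at 261, 428, 465 and 345 CPM with itraconazole. Replicate 1 was again the lowest treated library, and the log2 fold change was 0.67 ± 0.134 (SE; edgeR adjusted p = 0.000351) with it and 0.83 without it (edgeR adjusted p = 1.25e-07). Scaled to plain totals the rise was 0.33 in SW948 (edgeR adjusted p = 0.015) and 0.60 in HT55. Exons of ELF3 share 664 bases with an antisense gene, ELF3-AS1, and the strand setting of the counting is not given in the sources used here. They also share 664 bases with a long noncoding RNA gene on the same strand, an overlap that no strand setting would resolve. ELF3-AS1 held 1531 counts over the 16 libraries and the same-strand gene 25, against 45157 for ELF3.

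The difference between the lines' responses was then tested itself, as an interaction over all 16 libraries, and 4 of the 7 members passed, where 53.9% of 13249 genes did: 3 with a lower response in SW948 (29.1% of genes) and 1 with a higher one (24.8%). CDX2 responded lower in SW948 than in HT55 by 1.29 on the log2 scale (SW948 response minus HT55 response -1.29 ± 0.2, SE; edgeR adjusted p = 2.59e-05). For CDX1 the difference was -0.85 ± 0.205 (SE; edgeR adjusted p = 0.00164) and for HNF4A it was -0.35 ± 0.0811 (SE; edgeR adjusted p = 0.0011), or -0.55 when scaled to plain totals.
GATA6 went the other way, at 0.37 ± 0.11 (SE; edgeR adjusted p = 0.00836), but scaled to plain totals it was 0.18 and missed the threshold (edgeR adjusted p = 0.156). For the KLF and ELF members a difference was not shown. ELF3 had a difference of -0.07 with an interval of -0.42 to 0.27 (edgeR adjusted p = 0.737). KLF5 had one of -0.23 with an interval of -0.49 to 0.02 (edgeR adjusted p = 0.113), which was -0.44 and passed when scaled to plain totals (edgeR adjusted p = 0.011), and KLF4 one of 0.28 with an interval of -0.09 to 0.66 (edgeR adjusted p = 0.185), which was 0.42 and passed without SW948 itraconazole replicate 1 (edgeR adjusted p = 0.0156). These intervals still allow sizeable differences between the lines.

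The untreated lines were compared next. With DMSO, 5 of the 7 members differed between SW948 and HT55, where 84.2% of tested genes did. For 5 of 7 the libraries of the lines did not overlap, against 78.8% of tested genes. KLF5 was the 1 member higher in SW948, where 42.6% of tested genes were, and 4 were lower, where 41.6% were. KLF4 was 2.62-fold lower in SW948 (log2 difference -1.39 ± 0.0497, SE; edgeR adjusted p = 2.61e-18). CDX1 was lower by 0.50, CDX2 by 0.39 and HNF4A by 0.17 on the log2 scale (log2 differences -0.50, -0.39 and -0.17; edgeR adjusted p = 1.36e-07, 4.8e-07 and 0.000476). Scaled to plain totals, the difference of HNF4A was 0.03 and missed the threshold (edgeR adjusted p = 0.531).
KLF5 was higher in SW948 by a log2 difference of 0.09 (edgeR adjusted p = 0.0446), a call kept in 7 of 16 alternative fits. GATA6 and ELF3 differed by 0.03 (interval -0.07 to 0.14) and 0.05 (interval -0.03 to 0.13) and did not pass (edgeR adjusted p = 0.518 and 0.203). Scaled to plain totals, where the median over all tested genes was 0.2, both passed as higher in SW948, GATA6 at 0.23 and ELF3 at 0.25 (edgeR adjusted p = 0.000257 and 2.61e-06), KLF5 was at 0.28, and CDX1 and CDX2 were at -0.31 and -0.20. With itraconazole, 5 of 7 members differed between the lines as well, where 76.6% of tested genes did, 1 as higher (37.8% of tested genes) and 4 as lower (38.8%), and for 5 of 7 the libraries did not overlap, against 71.2% of tested genes. CDX2 was 3.21-fold, CDX1 2.56-fold, KLF4 2.15-fold and HNF4A 1.43-fold lower in treated SW948 than in treated HT55, GATA6 was 1.32-fold higher, and KLF5 and ELF3 did not pass (edgeR adjusted p = 0.262 and 0.917). The 2 comparisons between lines and the 2 within lines share libraries in pairs and are not independent of each other.

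Levels of different genes were compared per kilobase of exon. KLF5 was the highest of the 7 in all 4 groups, at 161 ± 2.41 CPM per kb in HT55 with DMSO and 170 ± 4.33 in SW948 with DMSO (SD, n = 4, per kb of all annotated exons). CDX2 followed in both DMSO groups, at 75.9 ± 6.36 and 57.6 ± 4.61 CPM per kb. GATA6, at 16.8 ± 0.573 and 17.2 ± 0.741 CPM per kb, and HNF4A, at 15.0 ± 0.271 and 13.3 ± 0.236, were near the bottom. So was KLF4 in SW948 with DMSO, at 13.5 ± 0.833 CPM per kb.
In SW948 with itraconazole, CDX2 at 31.9 ± 10.4 CPM per kb came below ELF3 at 52.1 ± 12.6. The order below KLF5 depended on the length used, a comparison added after the data had been seen: all annotated exons of ELF3 span 7186 bases and its MANE Select transcript 3104, and those of HNF4A 10167 and 4645. Per kb of the MANE Select transcript, ELF3 at 73.9 ± 1.84 passed CDX2 at 58.8 ± 4.70 in SW948 already with DMSO, and the lowest member was GATA6 and no longer HNF4A in HT55 with DMSO, KLF4 in SW948 with DMSO and CDX1 in SW948 with itraconazole.

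**Figure D3:**
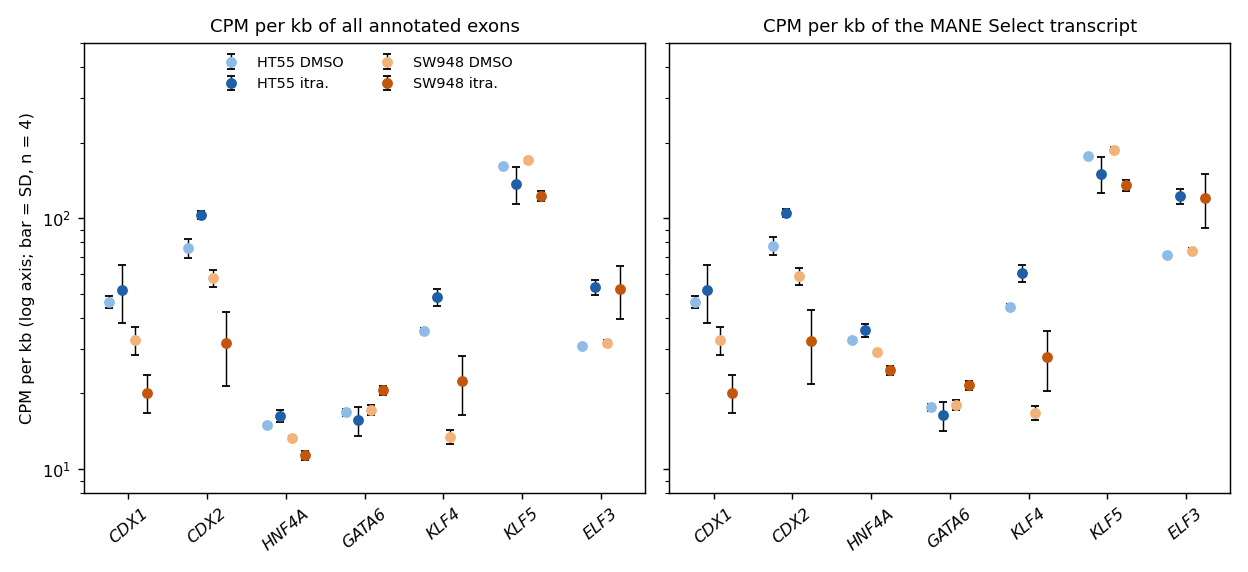
Mean level of each member per kilobase in the 4 groups, on a log axis, per kb of all annotated exons (left) and per kb of the MANE Select transcript (right); bars are SD (n = 4). KLF5 is highest in every group on both lengths, while HNF4A and ELF3 shift upwards from the left to the right panel.

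Ratios of counts within a library are free of any scaling between libraries, and they set the paired factors against each other. KLF5 had 4.46 to 4.71 counts for each count of KLF4 in HT55 with DMSO and 2.38 to 3.72 with itraconazole. In SW948 the ratio went from between 11.5 and 13.9 to between 4.49 and 7.35. The ranges did not overlap between treatments in either line, and the least moved treated libraries were HT55 replicate 3 and SW948 replicate 1, those that stood apart.
The ratio of CDX2 to ELF3 counts was 1.11 to 1.33 in HT55 with DMSO and 0.850 to 1.04 with itraconazole. In SW948 it went from between 0.843 and 0.961 to between 0.169 and 0.627. It fell in both lines although CDX2 rose in HT55, since ELF3 rose more. The ratio of ELF3 to KLF4, which rose together, went from between 1.65 and 1.75 to between 2.04 and 2.34 in HT55, without overlap, and from between 4.36 and 5.01 to between 4.18 and 4.91 in SW948, where the ranges overlapped.

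**Figure D4:**
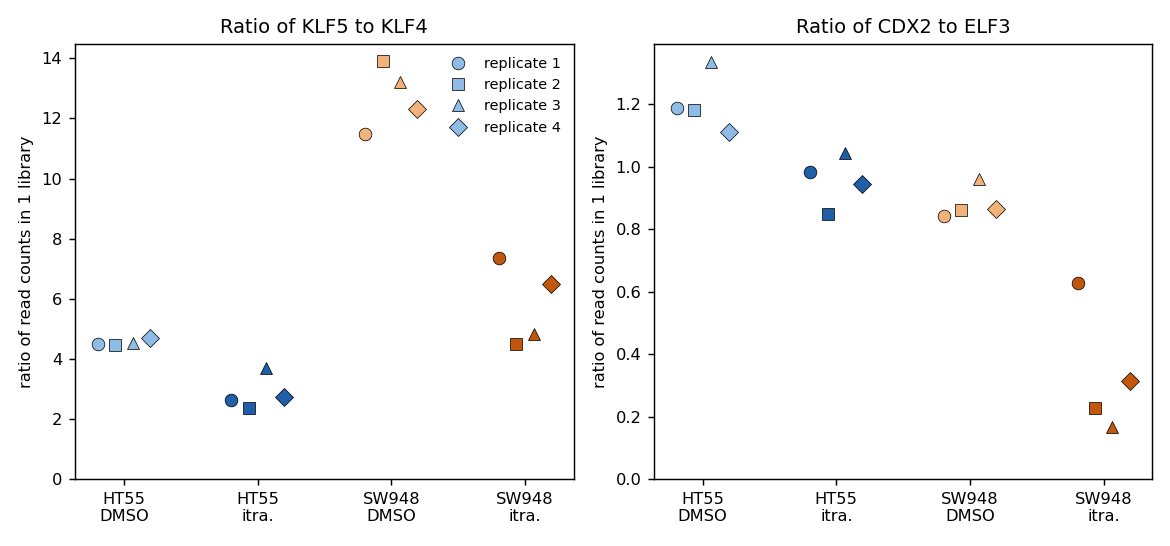
Ratio of read counts of KLF5 to KLF4 (left) and of CDX2 to ELF3 (right) within each library, by group; symbols give the replicate number. Both ratios are lower with itraconazole than with DMSO in each line, with SW948 itraconazole replicate 1 nearest to its controls.

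Likeness was measured as the root mean square difference of centred log2 CPM over the 16 libraries. The measure is not scaled to the size of the changes, so genes that move little lie near each other whatever their directions. Among the 7, HNF4A and KLF5 were nearest at 0.25, followed by CDX1 and CDX2 and by GATA6 and KLF5, each pair at 0.34. CDX2 and ELF3 were farthest apart at 0.86. Of the nearest pair, HNF4A and KLF5, each fell and passed in SW948 (-0.27 and -0.50; edgeR adjusted p = 0.000707 and 3.84e-06). Their HT55 log2 fold changes had opposite signs, 0.12 and -0.23, but neither passed there. Between the DMSO groups HNF4A differed by -0.17 and KLF5 by 0.09, calls kept in 15 and 7 of 16 alternative fits. Whether HNF4A and KLF5 follow unlike courses was not tested. Over 9225 genes, the 2 nearest to each member were ATP6V0D1 and MPI for CDX1, ACSF3 and ZBTB44 for CDX2, UBE3C and MAP7 for HNF4A, DDX50 and VGLL4 for GATA6, PLA2G15 and EPS8L1 for KLF4, DDX42 and PHRF1 for KLF5, and VEGFA and GUK1 for ELF3. Their distances ran from 0.062 for UBE3C to 0.165 for MPI and ZBTB44. The log2 fold change of ZBTB44, for example, was 0.45 in HT55 and -0.84 in SW948, beside 0.43 and -0.88 for CDX2. The points share 4 groups of libraries, so likeness mostly reflects the 4 group means.

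Intestinal genes generally tied to CDX factors were counted from a list of 20. In HT55, where 27.5% of all tested genes rose and 26.5% fell, 10 of 15 tested rose, 2 fell and 3 did not pass, with a median log2 fold change of 0.42 beside -0.02 over all tested genes. In SW948, where 38.9% rose and 41.3% fell, 5 of 16 rose, 10 fell and 1 did not pass, with a median of -0.56 beside -0.02. On plain library totals the counts were 7 up and 2 down in HT55 and 3 up and 11 down in SW948. Over all tested genes that scaling called 2280 of 12133 higher and 4709 lower in HT55. In SW948 it called 3147 of 12505 higher and 6826 lower.
Among 17 tested for the interaction, 13 responded lower in SW948, 1 responded higher and 3 did not pass, beside 29.1% and 24.8% of all genes. On plain library totals the list had 13 lower and 0 higher, beside 4929 and 2295 of 13249 genes. CDHR5, an adhesion protein of the brush border, rose in HT55 (log2 fold change 0.35, edgeR adjusted p = 0.0326; 0.19 and not passing when scaled to plain totals) and fell in SW948 (at -1.18, edgeR adjusted p = 8.23e-07). MEP1A, a brush border protease, and TFF3, a secreted goblet cell peptide, were lower after treatment in both, MEP1A by log2 fold changes of -0.33 and -2.50 and TFF3 by -1.42 and -2.94, in HT55 and SW948 in turn. MUC13, a membrane mucin, rose in both, at 1.23 and 0.78.

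The transcription factors that act beside the members were counted too. Of 39 other gut epithelial factors, 12 of 27 tested rose in HT55 and 5 fell, and 12 of 29 rose and 12 fell in SW948. The background shares were 27.5% higher and 26.5% lower for HT55, and 38.9% higher and 41.3% lower for SW948. The SW948 counts are thus at the background. On plain library totals the list had 10 up and 10 down in HT55 and 9 up and 16 down in SW948. That scaling has its own background: 2280 of 12133 tested genes were called higher and 4709 lower in HT55. In SW948 it called 3147 of 12505 higher and 6826 lower.
ISX, an intestine-specific homeobox factor, moved in opposite ways, as CDX2 did (log2 fold changes 0.49 in HT55 and -1.96 in SW948), and so did VDR, the vitamin D receptor, at 0.31 and -1.80, the first of which was 0.15 and missed the threshold when scaled to plain totals (edgeR adjusted p = 0.135). HNF4G, the paralogue of HNF4A, missed the threshold in HT55 (log2 fold change -0.11, edgeR adjusted p = 0.563, and 0.054 without HT55 itraconazole replicate 3, adjusted p = 0.637) and fell in SW948 (at -1.01, edgeR adjusted p = 9.31e-06), beside -0.27 for HNF4A. EHF, the nearest relative of ELF3 in the list, was at 0.77 in HT55 (edgeR adjusted p = 0.0148, or 0.054 when scaled to plain totals) and at -0.25 in SW948 (edgeR adjusted p = 0.00403), whereas ELF3 rose in both. FOXA1, FOXA2 and FOXA3, forkhead factors of gut endoderm, had SW948 log2 fold changes of 1.07, 0.46 and -0.64, of which that of FOXA2 was 0.13 and missed the threshold when scaled to plain totals. In HT55 FOXA3 fell as well (log2 fold change -0.44, edgeR adjusted p = 0.0103). FOXA2 was at 0.02 there (edgeR adjusted p = 0.89), or -0.15 when scaled to plain totals (edgeR adjusted p = 0.21). FOXA1 was too low for the test in HT55, with 8 counts over the 4 DMSO libraries.

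**Figure D5:**
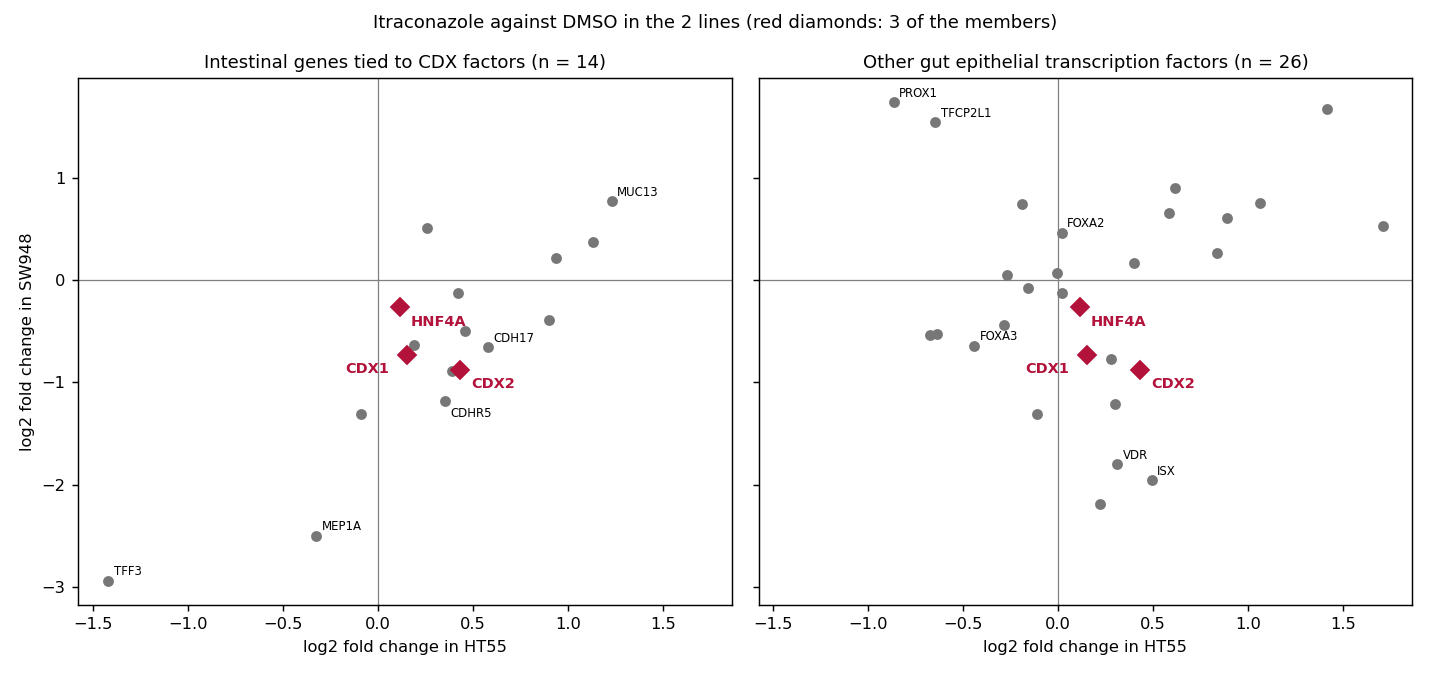
Log2 fold change with itraconazole in HT55 (x axis) and SW948 (y axis) for intestinal genes tied to CDX factors (left) and other gut epithelial transcription factors (right) that were tested in both lines; red diamonds are CDX1, CDX2 and HNF4A. Points below and to the right of 0 were higher in HT55 and lower in SW948, as CDX2 was, and ISX, VDR and CDHR5 lie there. Labels are given for some of the genes named in the text.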

How the data were processed

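The authors made TruSeq libraries, sequenced single-end 50 bp reads and deposited 1 table of raw read counts per Ensembl gene for each of 16 libraries. The submitters' processing notes name TopHat, HTSeq and DESeq. Reads were aligned to hg19 (GRCh37). The annotation release and strand setting are not given in the sources used here. The last 5 rows, totals outside genes, were left out and held 28.2% to 32.9% of each library. Reads aligning to several places were not counted in genes.

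Counts were tested in edgeR 4.0.16 (R 4.3.3; quasi-likelihood, TMM, filterByExpr, Benjamini-Hochberg over all tested genes). Each comparison was fitted on its own libraries and the interaction on all 16. Each standard error was the absolute log2 fold change over the square root of F. CPM used TMM over 16 libraries. p-values measure the spread between these libraries, and counting error is included in it. Lengths came from GENCODE on GRCh37. The steps were tested on simulated data.

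The 7 members and the gene lists were chosen with earlier results of these data known. Named list genes are those called in both lines and the interaction with the largest summed absolute changes (up to 3 per list, direction and line), FOXA, HNF4G and EHF among the partners, the 2 genes most like each member, and markers. KLF14 and PECAM1 were not matched, and some genes that this rule names are not reported here. Alternatives were DESeq2 1.42.0 size factors and Wald test, plain library totals, no filter, at least 10 counts in every library, leaving out the top 20 and mitochondrial genes, a replicate block, 1 fit on 16 libraries, and leaving out each library.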

Additional observations from a re-analysis of the deposited data

Results flagged for a closer look

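CDX2 in SW948 with DMSO had 1 library far from the rest. Replicate 3, at 227 CPM against 192 to 196 CPM in the other 3, was separated by 0.881 of the group's range, above Dixon's 95% limit for 4 values. It was the only one of 28 groups of 4 that passed this limit, where about 1 in 20, or 1.4, would by chance. Without that library and SW948 itraconazole replicate 1, a choice made after the data had been seen, CDX2 still fell.

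For 4 members the response to itraconazole differed between the lines in the edgeR interaction test, where 53.9% of 13249 genes passed. With a background this high, the number of members called is no result about them, and their directions and sizes are given instead. The SW948 response minus the HT55 response was -0.853 for CDX1, -1.288 for CDX2, -0.354 for HNF4A and 0.368 for GATA6 on the log2 scale. For CDX2 every treated library of HT55 lay above its controls and every treated library of SW948 below them. The GATA6 difference was the one of the 4 that was lost on plain library totals.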

How the results depend on the processing

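Over 35 log2 fold changes of members (7 genes in 5 comparisons), 623 values under the alternatives were compared with those reported: 590 kept their direction and side of the threshold, 11 changed direction, 12 newly passed and 10 no longer passed. Of the 11 that changed direction, 9 were not called in the reported fit, and the other two, GATA6 in SW948 and HNF4A between the DMSO groups, were called there and missed the threshold on plain library totals. Libraries held 8269406 to 11110814 counts, and each member had 247 counts or more in each library.

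Scaling had most effect. On plain library totals, 5 members passed in HT55 against 3, where 6989 genes were called against 6553 and 4709 of them lower against 3213, GATA6 at -0.28 and KLF5 at -0.39 having joined as lower, while CDX1 at -0.002 and HNF4A at -0.049 changed direction without passing. GATA6 in SW948 turned to -0.105 and HNF4A between the DMSO groups to 0.027. The share of higher genes among all called genes went from 51.0% to 32.6% in HT55, from 48.5% to 31.6% in SW948, from 50.5% to 60.2% between the DMSO groups and from 46.1% to 31.8% in the interaction.

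Leaving out each library in turn gave 3 to 5 members called in HT55, 7 to 7 in SW948, 4 to 5 between the DMSO groups, 5 to 5 between the itraconazole groups and 4 to 5 in the interaction. Over all genes it gave 5560 to 7910 called in HT55, 9686 to 10294 in SW948, 10655 to 10909 between the DMSO groups, 9173 to 9629 between the itraconazole groups and 6762 to 7451 in the interaction. CDX1 in HT55 ran from -0.023 without itraconazole replicate 3 to 0.254 without itraconazole replicate 2, and was -0.037 without both HT55 replicate 3 libraries, a choice made after the data had been seen. ELF3 between the treated lines, reported at -0.02, ran from -0.13 without SW948 itraconazole replicate 3 to 0.14 without replicate 1, and it became 0.002 with at least 10 counts in every library, 0.013 without HT55 itraconazole replicate 2 and 0.04 without SW948 itraconazole replicate 4. The interaction of ELF3 ran from -0.196 without SW948 itraconazole replicate 3 to 0.059 without replicate 1. None of these passed. KLF5 in HT55 passed with no filter and with 1 fit on all libraries, and its interaction passed on plain library totals and without HT55 itraconazole replicate 2. The cause was not tested.

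Replicates carry the same numbers in all groups, but same-numbered libraries did not deviate together throughout (correlations of deviations from -0.122 to 0.115), so they were not read as pairs. With the replicate block, 6300 genes were called in HT55, 9973 in SW948, 10827 between the DMSO groups, 9325 between the itraconazole groups and 7036 in the interaction, with 3, 7, 4, 5 and 4 members. KLF5 between the DMSO groups, at 0.09 with an edgeR adjusted p of 0.0609, was the one member call lost under the block.

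Without HT55 itraconazole replicate 3 the CDX-tied list had 11 genes up and 3 down in HT55. That fit called 7910 genes over the whole table, against 6553 in the reported one. Without SW948 itraconazole replicate 1 the list had 4 up and 10 down in SW948.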

Other observations

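Over the whole table the shares called with TMM were 27.5% higher and 26.5% lower for HT55, and 38.9% higher and 41.3% lower for SW948. The counts here, other than those on plain library totals, are to be read against these shares. Relatives of the 7 factors were counted from a list of 27 genes. In HT55, 7 of 16 tested rose and 3 fell, and in SW948 11 of 17 rose and 4 fell, with median log2 fold changes of 0.21 and 0.72 beside -0.02 over all tested genes. On plain library totals the medians were 0.05 and 0.38, beside -0.18 and -0.35. GATA4, a relative of GATA6 typical of the upper gut, and CDX4 had 0 counts in all groups. GATA2, by contrast, rose from 3.14 ± 0.700 to 6.35 ± 1.25 CPM in HT55 and, in SW948, from 20.7 ± 3.98 to 68.8 ± 13.8 (SD, n = 4; log2 fold changes 1.01 and 1.70; edgeR adjusted p = 0.00234 and 1.15e-07). KLF6, which like KLF4 belongs to the Krüppel-like family, rose from 59.5 ± 1.80 to 109 ± 22.7 CPM in HT55 and, in SW948, from 196 ± 4.25 to 514 ± 110 (SD, n = 4; log2 fold changes 0.87 and 1.36). KLF10 and KLF13 fell in both lines, KLF10 with log2 fold changes of -0.58 and -1.10 and KLF13 with -0.38 and -0.63. ELF4 rose in both, at 0.34 and 0.84.

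Genes tied to KLF4, KLF5 and ELF3 were counted from a list of 20. In HT55, 6 of 15 tested rose and 3 fell, against 4 up and 7 down on plain library totals, and in SW948 12 of 17 rose and 5 fell, against 10 and 5. Over all tested genes plain library totals called 2280 of 12133 higher and 4709 lower in HT55. In SW948 they called 3147 of 12505 higher and 6826 lower. CLDN4, a tight junction protein, had log2 fold changes of 1.19 and 1.83. LCN2, a secreted antimicrobial protein, fell from 79.7 ± 11.2 to 37.9 ± 17.4 CPM in HT55 and from 719 ± 122 to 45.8 ± 3.11 in SW948 (SD, n = 4). ELF3, which is known to act on it, rose in both lines, and a link between them was not tested. KRT19 fell in HT55 and rose in SW948 (log2 fold changes -0.19 and 1.34; edgeR adjusted p = 0.0212 and 1.27e-06), and LAMA3, a laminin chain, did the reverse, at 0.96 and -0.47.

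Absorptive and liver-type genes tied to HNF4 and GATA factors were counted from a list of 25. In HT55, 7 of 12 tested rose and 1 fell, and in SW948 6 of 13 rose and 6 fell. CYP2S1, a cytochrome P450 of epithelia, rose by log2 fold changes of 0.94 and 2.08, and MYO7B, a myosin of the brush border, by 0.75 and 1.34. Among the gut factors, PROX1 and TFCP2L1 fell in HT55 and rose in SW948, opposite to CDX2: PROX1 had log2 fold changes of -0.87 and 1.74 and TFCP2L1 of -0.65 and 1.55. Both were much lower in SW948, PROX1 at 1.48 ± 0.183 CPM with DMSO against 116 ± 5.04 CPM in HT55 (SD, n = 4).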
